A study of Mus musculus with 8 samples.

Results

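The genes of the proteins of the cytosolic small ribosomal subunit were examined in bone marrow-derived macrophages (BMDMs). They were taken by symbol as Rps followed by a number with an optional a, l or x, together with Rpsa, Fau and Rack1, which gave 34 of the 23761 genes in the table. BMDMs came from 4 mice that were LysM Cre/Cre (LysM) and 4 that were LysM Cre/Cre with KLF2 flox/flox (K2KO), all at 3 months of age, so both groups carry the Cre recombinase driven by lysozyme M in myeloid cells. Marrow was grown for 6 days in medium conditioned by L929 cells, a fibroblast line, the sample descriptions mark all 8 libraries as vehicle, and total RNA was sequenced. Values are FPKM, fragments scaled to the length of the transcript and to the size of the library. Column names give a genotype and a number, and no mouse, and libraries are called LysM0 to LysM3 and K2KO0 to K2KO3 after them.

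The small (40S) subunit reads the mRNA. It binds initiation factors, scans for the start codon and holds the decoding site where codon meets tRNA, and its proteins surround one long ribosomal RNA that is made and trimmed in the nucleolus with the help of many assembly factors. Cells make these proteins in near equal amounts, and their mRNAs belong to the TOP class, which begin with a C and a run of pyrimidines and whose translation follows mTORC1 activity. The genes have left many processed pseudogenes in the mouse genome, which are intronless copies of the mRNA.

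Read counts cannot be had from FPKM, and depth is known only between libraries. The FPKM of all genes summed to 497253 to 551608 in the LysM libraries and 448235 to 501965 in the K2KO libraries. Set against LysM0, depth judged from ratios of low values was 0.943 to 1.40, with no difference between the genotypes beyond the spread of the libraries (exact two-sided permutation test, p = 0.429, smallest possible 0.0286). It was 0.976, 1.08 and 1.23 in LysM1 to LysM3 and 1.39, 1.40, 0.943 and 0.976 in K2KO0 to K2KO3. Whether depth bears on the values of single libraries was not tested. The macrophage markers Cd68, Csf1r and Adgre1 were listed at means of 1834, 524 and 433 FPKM in the LysM libraries, and Lyz2, the lysozyme M gene that holds the Cre, at 18.6 FPKM. Itgam, also on the list of macrophage markers, had a mean under 1 FPKM and was not tested. Of the 7 tested macrophage markers, Mertk rose (log2 fold change 0.36), Lyz2 fell (-0.49) and 5 did not pass the test in limma. Markers of T cells, B cells, erythroid cells, dendritic cells, mast cells and fibroblasts summed to at most 5.28 FPKM per list in any library, with Hbb-bt, Xcr1 and Pdgfra under 0.1 FPKM in all 8. Neutrophil markers summed to 186, 267, 231 and 315 FPKM in LysM0 to LysM3 and to 175, 292, 227 and 306 in K2KO0 to K2KO3, with S100a9 the most abundant. Of the 7 tested neutrophil markers, Camp (a granule peptide) was the 1 that fell (log2 fold change -1.14), and none of the 7 rose. The part of other cells in the results that follow was not tested.

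Klf2, the targeted gene, was listed at 44.1, 52.9, 64.7 and 72.8 FPKM in LysM0 to LysM3 and at 45.5, 41.6, 59.2 and 59.3 FPKM in K2KO0 to K2KO3. The groups overlapped, and a log2 fold change of -0.18 did not pass the test (limma adjusted p = 0.460, standard error 0.17). A direction is therefore given for the libraries labelled K2KO, and their loss of Klf2 is not shown by these values.

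Of the 33 members that reached a mean of 1 FPKM and were tested, 11 fell in the libraries labelled K2KO and 0 rose (limma, adjusted p under 0.05 and absolute log2 fold change over 0.26). That is 33.3% of the tested members, where 8.61% of all 10920 tested genes fell and 9.84% rose. At an unadjusted p under 0.05 there were 18 members. The log2 fold changes of the 33 ran from -0.67 for Rps29 to 0.11 for Rps3, 30 of the 33 lay below 0 as did 48.2% of all tested genes, and the median was -0.23 (0.850 times the LysM level) beside 0.011 over all tested genes. Only 4 members had all K2KO libraries below all LysM libraries (background 10.2%), 1 had them all above (background 12.9%), and 28 overlapped. The number that fell depended on the scaling and the fit. Under quantile normalization 3 fell (Rps29, Rps13 and Rps18) and 1 rose (Rps3), where 6.4% of all genes fell and 7.65% rose, 24 of the 33 lay below 0 and the median was -0.12. Rps28, Rps10, Rps21, Rps26, Rps15, Rps9 and Rps14 lay at -0.33, -0.29, -0.22, -0.19, -0.14, -0.12 and -0.11 there and did not pass. With no filter on low values or by ordinary least squares 0 were called (18 at an unadjusted p under 0.05 in each). Of all genes, 0.859% fell with no filter and 2.9% by ordinary least squares. The number of members that fell depended on single libraries as well. It was 0 of 33 without LysM1, LysM2, LysM3 or K2KO0 (14 to 16 at an unadjusted p under 0.05 in limma) and 1 without K2KO1 or K2KO2. Of all tested genes, 1.5% to 4.16% fell in those fits. The number was 15 without LysM0 and 16 without K2KO3, where 10.6% and 12.4% of all tested genes fell. The median of the members stayed between -0.28 and -0.22. Of the 11, Rps29 kept its call in 4 of these 8 fits (without LysM0, K2KO1, K2KO2 or K2KO3), Rps13 in 0, and the others in 2 (without LysM0 or K2KO3). In bulk samples, fewer cells of a type and less RNA per cell cannot be told apart.

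**Figure D1:**
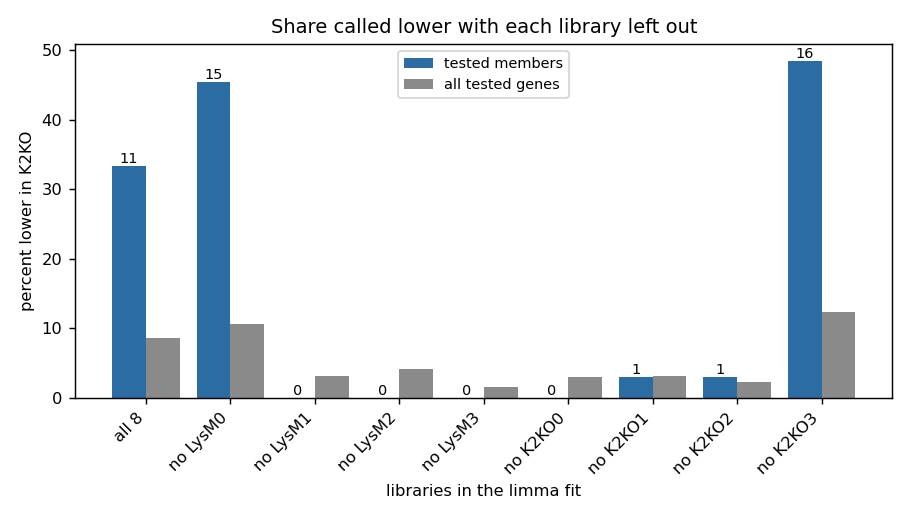
Percent of the 33 tested small-subunit members (blue, with the number above each bar) and of all tested genes (grey) called lower in the libraries labelled K2KO by limma, with all 8 libraries and with each library left out. The members go from 11 with all libraries to 15 and 16 without LysM0 or K2KO3 and to 0 or 1 without any other library.

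Of the members that fell, 5 encode proteins of the head of the subunit. Rps29, a zinc-binding protein of the head (chr12:69157722-69159186, minus strand, GRCm38), was listed at 13.1, 15, 14.5 and 15.5 FPKM in LysM0 to LysM3 and at 8.53, 6.82, 12.1 and 9.56 FPKM in K2KO0 to K2KO3. Every K2KO library lay below every LysM library, and the log2 fold change was -0.67 (limma adjusted p = 0.0204, standard error 0.15). Rps28, which lies near the mRNA exit, was listed at 345, 418, 414 and 443 FPKM in the LysM libraries and at 250.4, 233, 287 and 373 FPKM in the K2KO libraries. K2KO3 alone reached into the LysM range, above LysM0, and the log2 fold change was -0.52 (standard error 0.14, adjusted p = 0.0361). Rps18, at the contact with the large subunit, was listed at 289, 339, 397 and 370.1 FPKM in LysM0 to LysM3 and at 221, 233, 257 and 296 FPKM in K2KO0 to K2KO3. Here too K2KO3 exceeded LysM0 and no other LysM library, with a log2 fold change of -0.47 (standard error 0.12, adjusted p = 0.0284).

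Rps15, whose tail reaches the decoding site and which had the highest mean of all members, was listed at 1874, 2188, 2269.6 and 2427 FPKM in LysM0 to LysM3 and at 1422, 1318, 1641 and 2004 FPKM in K2KO0 to K2KO3. Rps10, a head protein mutated in some families with Diamond-Blackfan anemia, was listed at 210.2, 245, 255 and 269 FPKM in the LysM libraries and at 163, 146, 186 and 224 FPKM in the K2KO libraries. Both overlapped only through K2KO3 and LysM0. Their log2 fold changes were -0.47 for Rps15 and -0.46 for Rps10 (limma adjusted p = 0.0422 and 0.0398, standard errors 0.14 and 0.13).

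Others that fell encode proteins of the platform and body. Rps26, at the mRNA exit (chr10:128624534-128626747, minus strand), was listed at 736, 902, 949.5 and 936 FPKM in LysM0 to LysM3 and at 603, 586, 636 and 733 FPKM in K2KO0 to K2KO3. The groups stood apart, narrowly between K2KO3 and LysM0, and the log2 fold change was -0.46 (limma adjusted p = 0.0210, standard error 0.11). Rps21 (chr2:180257377-180258445, plus strand), a small protein of the body, was listed at 889, 1016, 1122 and 1099.5 FPKM in the LysM libraries and at 668, 629, 738 and 863 FPKM in the K2KO libraries. No K2KO library reached the lowest LysM library, and the log2 fold change was -0.51 (standard error 0.12, adjusted p = 0.0203). Rps14, a platform protein whose loss on one allele marks the human 5q deletion anemia, was listed at 870.2, 1037, 1159 and 1141 FPKM in LysM0 to LysM3 and at 701, 678, 859.5 and 916 FPKM in K2KO0 to K2KO3. K2KO3 lay above LysM0, and the log2 fold change was -0.42 (standard error 0.13, adjusted p = 0.0473), just inside the threshold.

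Rps13, a protein of the body that faces the large subunit (chr7:116331505-116334195, minus strand), was listed at 3.69, 5.29, 3.24 and 3.32 FPKM in LysM0 to LysM3 and at 2.31, 2.61, 3.04 and 2.38 FPKM in K2KO0 to K2KO3. The groups stood apart, and LysM1 was the highest of the 8, but the call (limma log2 fold change -0.55, adjusted p = 0.0406, standard error 0.16) was lost whichever library was left out. The gene held 2.50% of the FPKM of gene and copies together, described below. On that sum the groups overlapped, with a log2 fold change of -0.44 (limma adjusted p = 0.0394). Rps9, next to the mRNA entry and second in mean level, was listed at 1542, 1737, 1859 and 1975 FPKM in LysM0 to LysM3 and at 1295, 1232, 1271 and 1575 FPKM in K2KO0 to K2KO3. K2KO3 was the only K2KO library above LysM0, and the log2 fold change was -0.41 (standard error 0.11, adjusted p = 0.0306).

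LysM0 and K2KO3 were most often the libraries nearest to the other group. LysM0 was the lowest LysM library for 24 of the 33 tested members, and K2KO3 the highest K2KO library for 23, while K2KO1 was the lowest K2KO library for 19 and K2KO0 for 13. The 34 members summed to 12535, 14374, 15117 and 15335 FPKM in LysM0 to LysM3 and to 10400, 10351, 11425 and 13109 FPKM in K2KO0 to K2KO3, a log2 ratio of the means of -0.34. As the FPKM of all genes were also lower, the members took 2.69% ± 0.127 (SD, n = 4) of the total in the LysM libraries and 2.39% ± 0.158 (SD, n = 4) in the libraries labelled K2KO, a log2 ratio of -0.17.

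**Figure D2:**
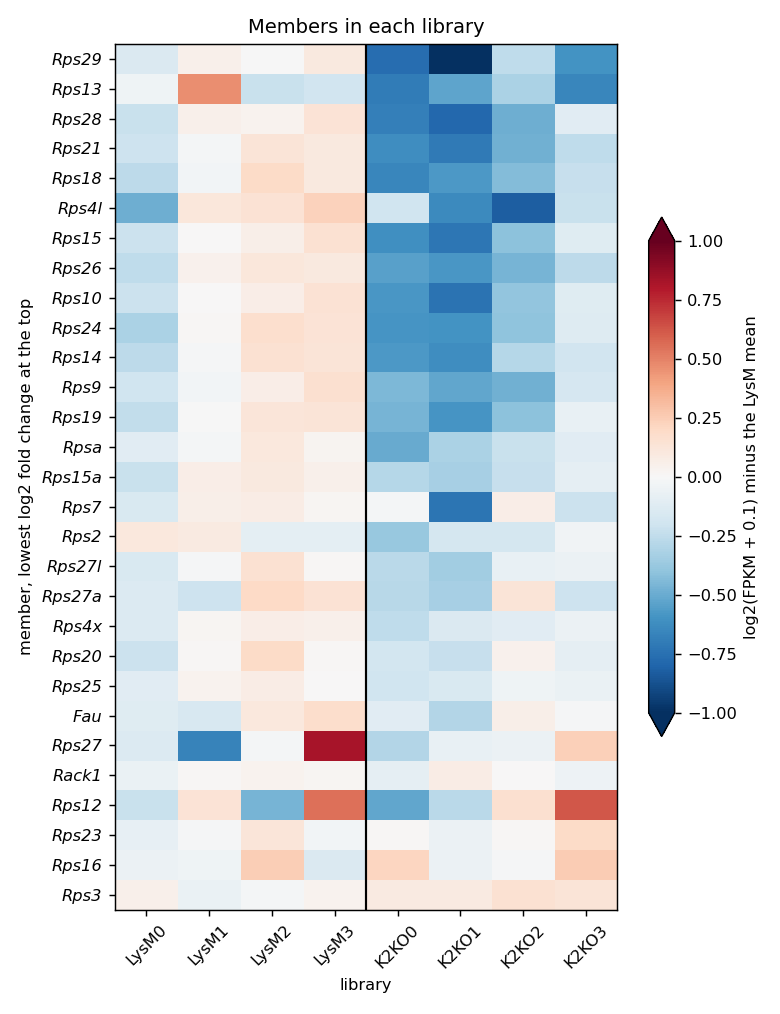
Of the 33 tested members, 29 (rows, ordered by log2 fold change) in each library (columns), as log2(FPKM + 0.1) minus the mean of the 4 LysM libraries. Blue is lower and red higher, and most rows are palest in K2KO3 among the K2KO libraries and blue in LysM0 among the LysM libraries.

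**Figure D3:**
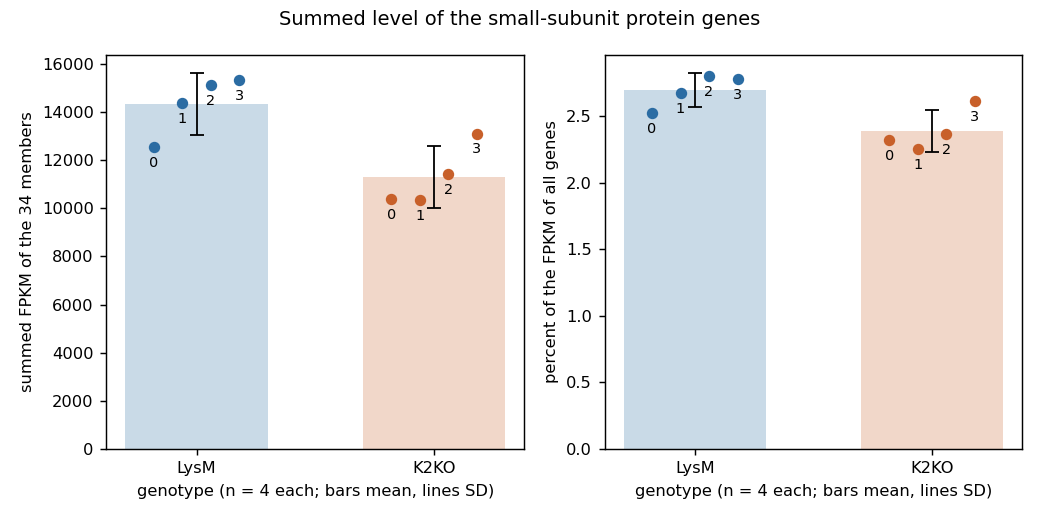
Summed FPKM of the 34 members (left) and their percent of the FPKM of all genes (right) in each library, marked with its number, with the mean (bar) and SD (line) of each genotype. K2KO3 at 13109 FPKM lies above LysM0 at 12535 FPKM, and the other K2KO libraries lie below every LysM library.

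The 22 tested members that did not pass the test ran from -0.47 to 0.11. Rpsa, which also serves as a laminin receptor at the cell surface, was the nearest to the threshold. It was listed at 119.9, 128, 139.9 and 133 FPKM in LysM0 to LysM3 and at 91.5, 104, 111 and 120.5 FPKM in K2KO0 to K2KO3 (limma log2 fold change -0.29, adjusted p = 0.0504, standard error 0.09). Only K2KO3 overlapped the LysM range. Rps24 and Rps19, both mutated in Diamond-Blackfan anemia, had log2 fold changes of -0.43 and -0.39 and adjusted p of 0.0545 and 0.0547. Rps15a, Rps7 and Rps2 lay between -0.23 and -0.19, and Rps20 and Rps25 at -0.12, with Rps2 at 0.02 and Rps25 at 0.07 under quantile normalization. Rps16 lay at 0.10.

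At the other end, Rps3, a protein of the mRNA entry (chr7:99477896-99483738, minus strand), was listed at 477, 442, 454 and 473 FPKM in LysM0 to LysM3 and at 491, 489.6, 513 and 504 FPKM in K2KO0 to K2KO3. All K2KO libraries lay above all LysM libraries, but a log2 fold change of 0.11 did not pass the test (limma adjusted p = 0.178, standard error 0.06). Under quantile normalization Rps3 passed, at 0.30 (adjusted p = 0.0197). Rack1, a scaffold with WD repeats that docks kinases on the head, was listed at 419, 440.3, 448 and 445 FPKM in the LysM libraries and at 412, 461, 439 and 423 FPKM in the K2KO libraries. The groups were interleaved, with a log2 fold change of -0.02 (standard error 0.06, adjusted p = 0.878) that was 0.17 under quantile normalization. Rps12, of the beak of the head, was listed at 1.16, 1.52, 0.964 and 2.05 FPKM in LysM0 to LysM3 and at 0.926, 1.12, 1.54 and 2.16 FPKM in K2KO0 to K2KO3 (log2 fold change -0.001, standard error 0.29). Rps23, at the decoding site, was listed at 3.63, 3.82, 4.19 and 3.76 FPKM in the LysM libraries and at 3.87, 3.69, 3.87 and 4.40 FPKM in the K2KO libraries (log2 fold change 0.04). Rps12 and Rps23 are among the members whose level at the gene is a small part of that with its copies, described below.

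At the genes themselves, the paralogs were listed at unlike levels. Rps4x, the X-linked member of its pair, was listed at 347, 387, 399 and 395 FPKM in LysM0 to LysM3 and at 320.0, 345, 352 and 366 FPKM in K2KO0 to K2KO3 (log2 fold change -0.14, limma adjusted p = 0.175, and 0.05 under quantile normalization). Rps4l, which the annotation lists as a transcribed processed pseudogene on chromosome 6, was listed at 13.9, 21, 21.5 and 22.8 FPKM in the LysM libraries and at 17, 12.5, 11 and 16.7 FPKM in the K2KO libraries. LysM0 fell among the K2KO libraries, and a log2 fold change of -0.47 with a standard error of 0.19 did not pass the test (adjusted p = 0.10). Rps27l, known as a target of p53, was listed at 200.5, 222, 248 and 225 FPKM in LysM0 to LysM3 and at 186, 175, 212 and 215 FPKM in K2KO0 to K2KO3 (log2 fold change -0.19, adjusted p = 0.164, and 0.003 under quantile normalization). Its paralog Rps27 was listed at 2.09, 1.42, 2.28 and 4.16 FPKM in the LysM libraries and at 1.87, 2.19, 2.21 and 2.74 FPKM in the K2KO libraries, with LysM1 the lowest and LysM3 the highest of the 8 (log2 fold change -0.05, standard error 0.27). Summed with its copies, described below, Rps27 had a mean of 1340.4 FPKM beside 210.4 FPKM for Rps27l, so the order of this pair turns with the copies. Over the 8 libraries the members most like Rps27l were Rps14 (Pearson's r = 0.955), Rps25 (0.941) and Rps24 (0.926), and those most like Rack1 included Rps4x (0.515) and Rps25 (0.434), on the log2(FPKM + 0.1) scale, where the points share libraries and their scaling.

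Fau and Rps27a are made as fusions to a ubiquitin-like protein and to ubiquitin, from which the ribosomal protein is cut. Fau was listed at 21.3, 20.8, 25 and 26.3 FPKM in LysM0 to LysM3 and at 21.5, 18.9, 24.2 and 23.1 FPKM in K2KO0 to K2KO3 (log2 fold change -0.09, limma adjusted p = 0.543). Rps27a was listed at 10.2, 9.73, 12.9 and 12.4 FPKM in the LysM libraries and at 9.27, 8.91, 12.3 and 9.75 FPKM in the K2KO libraries (log2 fold change -0.17, adjusted p = 0.339). The groups overlapped for both genes.

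**Figure D4:**
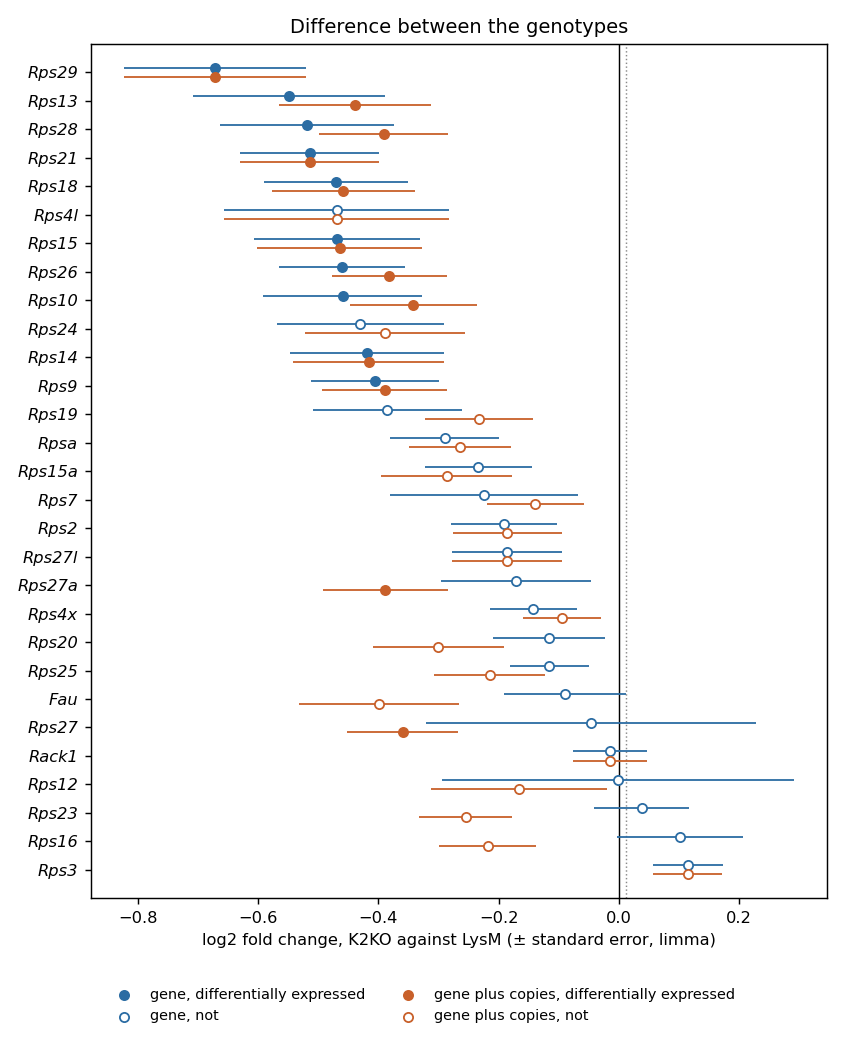
Log2 fold change (K2KO against LysM, limma, with its standard error) of 29 of the 33 tested members at the gene (blue) and summed with near-identical copies (orange), where filled points were differentially expressed. The dotted line is the median of all tested genes (0.011), and Rps27a, Fau, Rps27, Rps23 and Rps16 lie lower with their copies than alone.

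The listed levels of the members ran over a wide range, from 0.25 FPKM for Rps6, the target of the S6 kinases, to 1893 FPKM for Rps15. At the gene itself, 9 of the 34 had a mean under 20 FPKM and 22 a mean over 100 FPKM. Much of this went with near-identical copies. For 27 members the table lists other genes whose transcript matches the member's at 95% identity or more over at least 200 bases, 157 copies in all, of which 153 are processed pseudogenes and 4 are annotated as protein-coding, and 55 had a mean of at least 1 FPKM. In 10 members (Rps6, Rps27, Rps23, Fau, Rps27a, Rps16, Rps12, Rps13, Rps20 and Rps7) the gene held under 10% of the FPKM of gene and copies together. Rps6 held 0.0531% of it, with Rps6-ps4 on chromosome 2 listed at 469 FPKM, and Fau held 0.902%, with Gm9843 on chromosome 16 listed at 2490 FPKM.

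For 4 of these the exon joints show how alike gene and copy are. The 30 bases across one exon joint in the coding part of the mRNA, with the last 15 bases of the left exon in lower case and the first 15 of the right exon in capitals, are found letter for letter in the copy of highest level, where no intron separates them. The sequences are from GENCODE release M21 on GRCm38.
Fau, exons 2 and 3, chr19:6058572 joined to 6059144, plus strand: gccgcatgctgggagGTAAAGTTCACGGTT
Rps16, exons 3 and 4, chr7:28352273 joined to 28352363, plus strand: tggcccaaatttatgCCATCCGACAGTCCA
Rps23, exons 2 and 3, chr13:90923746 joined to 90924326, plus strand: tgtgctggaaaaagtAGGGGTTGAGGCCAA
Rps6, exons 3 and 4, chr4:86856146 joined to 86856013, minus strand: tcattgtaaagaaagGAGAGAAGGATATTC
The copies are Gm9843, Rps16-ps2 (968 FPKM beside 15.7 for Rps16), Rps23-ps1 (749 FPKM beside 3.90 for Rps23) and Rps6-ps4. Each matched its member at 100% identity over 402, 441, 425 and 750 bases in that order, which is the whole annotated copy. Reads inside such a stretch have the same letters in both places, and how the authors' alignment divided them was not tested.

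Each member was therefore also summed with its copies. Such a sum adds FPKM of annotations of unequal length and is not a molar amount. On the sums 12 of 34 members fell in the libraries labelled K2KO and 0 rose, which is 35.3% where 8.59% of all genes fell in that fit (limma). The log2 fold change lay below 0 for 33 of the 34 (48.2% of all genes in the fit without sums), with a median of -0.29. All K2KO libraries lay below all LysM libraries for 9 and above them for 1, beside 10.2% and 12.9% of all genes in the fit without sums. Of the 12, 10 had also fallen at the gene, 1 of the earlier 11 no longer passed, and Rps27 and Rps27a passed in addition. Rps27 with its copies, nearly all of it in Rps27rt, a protein-coding copy on chromosome 9, was at 1362, 1503, 1579 and 1575 FPKM in LysM0 to LysM3 and at 1063, 1078, 1273 and 1289 FPKM in K2KO0 to K2KO3 (log2 fold change -0.36, standard error 0.09, adjusted p = 0.0288). Rps27a with its copies, led by Gm8430, was at 782, 822, 959 and 860.1 FPKM in the LysM libraries and at 564, 609, 725 and 726 FPKM in the K2KO libraries (log2 fold change -0.39, standard error 0.10, adjusted p = 0.0323). In both the groups stood apart, where those of the gene alone had overlapped. With the sums corrected for GC content and length, the log2 fold change of Rps27 was -0.14 and its call was lost (limma adjusted p = 0.202), while the log2 fold change of Rps27a was -0.42 (adjusted p = 0.0188). In that fit 10 of the 34 fell and 0 rose, where 5.61% of all genes fell. Rps10, Rps15 and Rps14 lay at -0.08, -0.16 and -0.22 and no longer passed, and Rps28 passed at -0.34. The gene held 27.3% of the sum for Rps10 and 18.5% for Rps28.

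Among the 10 members with under 10% at the gene, the median log2 fold change went from -0.09 at the gene (9 tested) to -0.28 on the sums, beside -0.29 for the sums of the other 24. Fau with Gm9843 went from -0.09 to -0.40 without passing the test (adjusted p = 0.0604), and was at -0.13 with that correction. Rps23 with its copies had a log2 fold change of -0.25, inside the fold threshold, at an adjusted p of 0.0461, and its groups stood apart. Of the 55 copies that were tested on their own, 11 fell and 0 rose, where 8.61% of all tested genes fell and 9.84% rose, and 47 lay below 0 (48.2% of all tested genes) with a median of -0.26.

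Members with no copy by this measure include Rack1, Rps4l, Rps3, Rps21, Rps27l and Rps29. For Rps29 this rests on the minimum of 200 bases. A search down to 150 bases, chosen after the values were seen, found 5 copies of its 171-base coding part, of which Gm14303 on chromosome 2 is identical over all 171 bases. Gm14303 was listed at 5572, 6046, 6954 and 6582 FPKM in LysM0 to LysM3 and at 4086, 4019.9, 4659 and 5479 FPKM in K2KO0 to K2KO3, so the gene Rps29 held 0.219% of the sum. The sum fell as well, with a log2 fold change of -0.47 (limma adjusted p = 0.0279, standard error 0.12), and its groups stood apart by a small margin between K2KO3 and LysM0. Rack1 and Rps3 keep their values in either search.

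**Figure D5:**
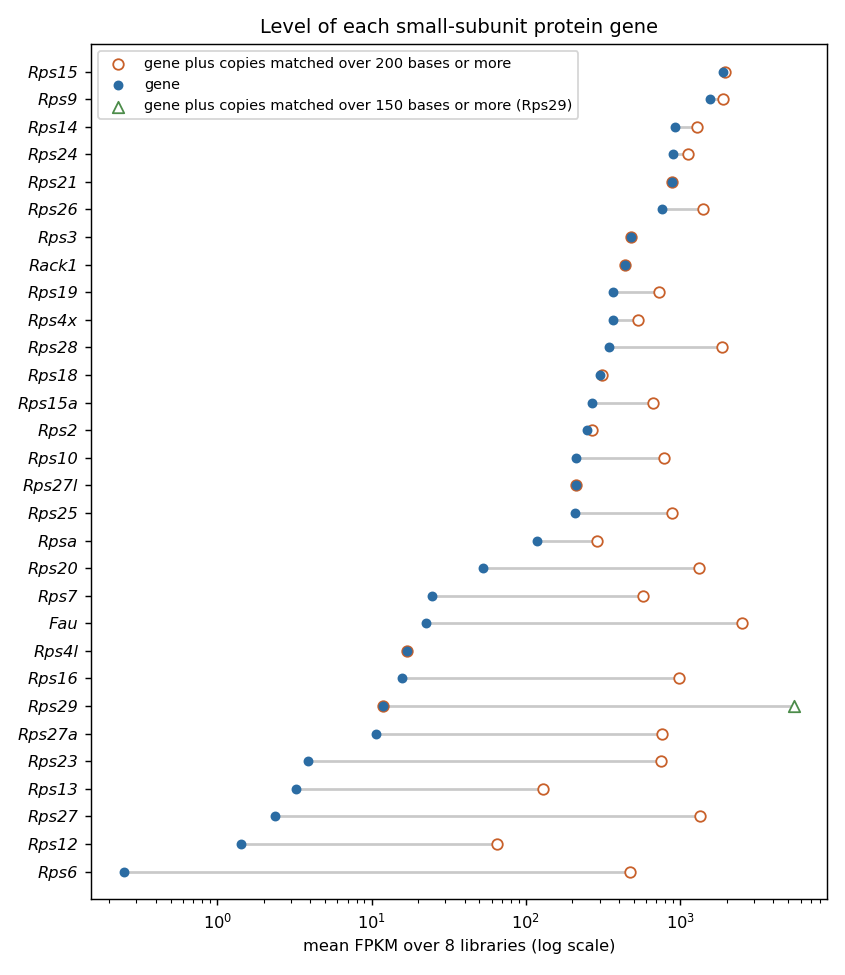
Mean FPKM over the 8 libraries (log scale) of 30 of the 34 members at the gene (filled blue) and summed with their near-identical copies (open orange), and for Rps29 with the shorter copies (open triangle). The lowest genes, such as Rps6 at 0.25 FPKM and Rps27 at 2.37 FPKM, stand at 471 and 1340.4 FPKM with their copies, and Rps15, Rps3 and Rack1 hardly or not at all.

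Genes of the subunit that the symbols leave out were given apart. Rps3a1, the expressed gene of a protein that initiation factors contact, was listed at 335, 424, 467 and 440.3 FPKM in LysM0 to LysM3 and at 274, 285, 339 and 374 FPKM in K2KO0 to K2KO3 (limma log2 fold change -0.39, adjusted p = 0.0599, standard error 0.13). K2KO2 and K2KO3 lay above LysM0. Rps27rt fell, with a log2 fold change of -0.36 (adjusted p = 0.0291). Actb, a common reference gene that encodes an actin, fell too, from 2625, 2949, 2859 and 2848 FPKM in the LysM libraries to 1962, 2279, 2064 and 2449 FPKM in the K2KO libraries (log2 fold change -0.37, adjusted p = 0.0239), and under quantile normalization its log2 fold change was 0.006. With each library corrected for GC content and length Actb still fell, at -0.31 (limma adjusted p = 0.0337).

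The start of the transcript was looked at because TOP mRNAs share a run of pyrimidines there. RefSeq (GRCm38.p6) gave the annotated start of 25 members, and Rps14, Rps20, Rps27a, Rps29 and Rps4l are among the 9 with no entry. In a window of 15 bases to either side of the start, on the strand of the gene, 14 of the 25 held a run of at least 7 bases that were all C or T (56%), beside 18.5% of 27025 genes and 17.8% of 7758 tested genes. The start lay inside the run in 9. The run stands in capitals in the following windows, which show members that fell and members near 0, with and without a long run.
Fau, chr19:6057932-6057961, plus strand: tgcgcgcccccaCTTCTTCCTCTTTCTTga
Rack1, chr11:48800345-48800374, plus strand: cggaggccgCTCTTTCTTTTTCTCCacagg
Rps10, chr17:27635230-27635259, minus strand: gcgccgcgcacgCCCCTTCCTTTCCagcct
Rps18, chr17:33955651-33955680, minus strand: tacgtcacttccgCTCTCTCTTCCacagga
Rps21, chr2:180257364-180257393, plus strand: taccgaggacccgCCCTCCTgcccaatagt
Rps28, chr17:33824548-33824577, minus strand: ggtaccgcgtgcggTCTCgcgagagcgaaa
Rps3, chr7:99483695-99483724, minus strand: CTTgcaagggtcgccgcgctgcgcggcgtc
Rack1 and Fau hold runs of 16 bases with log2 fold changes near 0 at the gene, Rps10 and Rps18 hold 13 and 11 and fell, and Rps28 fell with a run of 4. A run of at least 7 was present in 5 of the 8 members that fell and have a window and in 8 of the 16 tested members that did not pass the test. A run is a description of letters at an annotated start, which may differ from the start used in these cells.

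Transcripts of the members are short. Their median annotated length was 1094 bases beside 3033 for all tested genes, and their median GC content was 50.6% beside 49.7%. Over all 10899 tested genes with a sequence, the log2 fold change went with GC content (Spearman's rho = -0.40 across genes), and over the 33 members the same values were r = -0.23 and rho = -0.23, where the points share the 8 libraries. With each library corrected for GC content and length, 9 members fell and 0 rose where 5.61% of all genes fell, 7 of them shared with the 11 above, and the median was -0.21. Rps15, Rps10 and Rps14 were among the 4 that no longer passed, with log2 fold changes of -0.17, -0.21 and -0.23 after the correction. Rps24 and Rps15a passed in addition. Fau, at 60.2% GC, moved from -0.09 to 0.17 at the gene (limma adjusted p = 0.246 after the correction).

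Other genes of the ribosome were compared from lists chosen by symbol or role. Of 45 tested large-subunit protein genes, 15 fell and 2 rose, with a median of -0.24, where 8.61% of all tested genes fell and 9.84% rose. Rpl21, Rpl13 and Rpl37a had the largest decreases (log2 fold changes -0.59, -0.56 and -0.53), and Rpl29 rose from 0.150 ± 0.122 (SD, n = 4) to 382 ± 47.2 FPKM (SD, n = 4). Of 33 tested genes of the mitochondrial small subunit, which translates the mRNAs of the mitochondrial genome, 5 fell and 0 rose, with a median of -0.15. They include Mrps28, Mrps21, Mrps16 and Mrps12 with log2 fold changes of -0.41 to -0.34. Under quantile normalization the calls of Rpl37a, Mrps21, Mrps16 and Mrps12 were lost. The share that fell among the cytosolic small-subunit genes (33.3%) thus equalled that of the large subunit (33.3%), and whether either differs from the mitochondrial share (15.2%) or from the 8.61% of all tested genes was not tested.

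Of 55 tested factors that build the 40S subunit, 5 rose and 1 fell, with a median of -0.009, so the share that rose was near the 9.84% of all tested genes and the share that fell below their 8.61%. Pno1, which chaperones the last cut of the ribosomal RNA, rose from 11.3 ± 0.631 to 16.0 ± 1.32 FPKM (SD, n = 4 each, log2 fold change 0.49), Nop58, a box C/D RNP core protein, rose by 0.40 and Rcl1, an early processing factor, by 0.36 on the log2 scale. Imp3, which helps the U3 RNA to pair with the precursor, fell from 88.8 ± 8.04 to 64.8 ± 11.8 FPKM (log2 fold change -0.47). Among 24 tested initiation factors that bind the 40S subunit, 4 rose and 2 fell, beside the same shares of all genes, with a median of -0.05. Eif3a, the large scaffold of eIF3, rose by 0.45, Eif1a by 0.49 and Eif3j2 by 0.57 on the log2 scale, while Eif3k, a small eIF3 subunit, fell from 244 ± 20.2 to 192 ± 21.5 FPKM (log2 fold change -0.35). The calls of Rcl1, Eif3j2 and Eif3k were lost under quantile normalization.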

How the data were processed

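BMDMs of 4 LysM and 4 K2KO mice were studied by RNA-sequencing. The study's methods name TopHat2 and Cufflinks with mm10, and the submitters' processing notes name STAR, Cufflinks and Cuffdiff with mm10. Versions are not given in the sources used here. The labels and the methods also name different RNA isolation kits. The authors deposited FPKM, 1 column per library and none pooled, so no count test was used and no counting error could be given. Each column was assigned to its genotype and none to one mouse, and p-values measure the spread between these libraries.

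Genotypes were compared as log2(FPKM + 0.1), which understates the change of low genes, over 10920 genes with a mean of at least 1, with limma 3.58.1 (lmFit, eBayes with a trend) in R 4.3.3, without covariates. Benjamini-Hochberg adjustment ran over all tested genes, and a call needed an absolute log2 fold change over 0.26 with an adjusted p under 0.05. An exact two-sided permutation test (35 splits, smallest p 0.0286) was used for single values. Copies were found with BLAST 2.17.0 among GENCODE M21 transcripts, matched for 23645 genes. The correction for GC content and length was a local regression per library (span 0.3).

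Members and lists were chosen with earlier results of these data known. Values in every library were given for called members, the 3 of highest mean, the paralogs, the ubiquitin-like fusions, Rpsa, Rack1, the 3 tested members nearest to 0, Klf2 and Actb. Each list gave up to 4 called genes of largest change, and Rps3 was named after its values were seen. Some members that the rules cover are not reported here by name. Alternatives were other pseudocounts, filters, scalings and fits, the number that ends each column name as a block, sums with copies and each library left out. The sums with the correction and the copies of 150 bases or more were chosen after seeing the data.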

Additional observations from a re-analysis of the deposited data

Results flagged for a closer look

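Among the members, Klf2, Actb, Rps3a1 and Rps27rt, 1 of 76 groups of 4 libraries held a library far from the others. Rps15a, a protein of the body of the subunit, was listed at 247 FPKM in LysM0 and at 298 to 308 FPKM in the other LysM libraries. Chance marks about 1 in 20 groups, 3.8 of 76 here, so a single one is not above it.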

How the results depend on the processing

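The number of members that fell, 11, stayed within 1.5 times of itself with other pseudocounts, upper-quartile scaling, the GC and length correction, limma without a trend and the sums with copies. It was 7 with a filter at 0.1 FPKM, 3 under quantile normalization (where 1 rose) and 6 with the replicate block together with the GC and length correction. It was 0 with no filter (18 at an unadjusted p under 0.05, limma), by ordinary least squares (18) and at a log2 fold change over 1. With each library left out it ran from 0 to 16, as given above by library. Of all genes, 2014 were called, beside 483 with no filter, 1098 with the GC and length correction, 868 with the block and that correction, 1093 for the sums with it, 746 by ordinary least squares, 110 at a log2 fold change over 1, and 337 to 2837 with a library left out. Upper-quartile scaling put 64.1% of calls higher, where 53.3% were higher as deposited. With the GC and length correction 44.2% were higher, and 45.5% with the block and that correction. The log2 fold change of Actb turned from -0.37 to 0.0061 under quantile normalization, and was -0.31 with the GC and length correction. The cause of these changes was not tested, apart from the fewer libraries or other gene sets that some settings use. The median of the members stayed below 0 in every setting, and was nearest to 0 under quantile normalization (-0.12). Rps29 was called in 4 of the 8 fits with a library left out, Rps13 in 0 and the other called members in 2.

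With the number that ends each column name as a replicate block, 13 members and 2057 genes were called. Over all tested genes, deviations of same-numbered libraries from their genotype means correlated at -0.07, 0.02, 0.07 and -0.06. Of 4 LysM libraries, 1 correlated best with its own number. The FPKM of all genes rose with the number in both genotypes, from 497253 in LysM0 to 551608 in LysM3 and from 448235 in K2KO0 to 501965 in K2KO3. With the block the standard error went from 0.12 to 0.07 for Rps18, from 0.13 to 0.07 for Rps14 and from 0.16 to 0.15 for Rps13. Whether same-numbered libraries were handled together was not tested. Read counts could not be had from FPKM, and the lowest members rest on values whose counting error is unknown.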

Other observations

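Regulators and enzymes that act on the 40S subunit were compared as 2 lists, where 9.84% of all tested genes rose and 8.61% fell. Of 14 tested genes of mTORC1 and of TOP mRNA control, 1 rose and 0 fell in the libraries labelled K2KO, with a median log2 fold change of 0.08. Rheb, the small GTPase that activates mTORC1, rose from 24.0 ± 2.56 to 31.6 ± 3.69 FPKM (SD, n = 4 each, log2 fold change 0.39, limma adjusted p = 0.0290). Of 11 tested enzymes that modify the subunit, 1 rose and 0 fell. It was Rps6ka3, an RSK kinase of the Rps6 protein, at 6.77 ± 0.512 and 9.50 ± 1.49 FPKM (log2 fold change 0.47, adjusted p = 0.0252). None of 13 tested proliferation genes was called by limma, and their median was -0.10.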
